A study of Mus musculus with 50 samples.

Results

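Hippocampus was compared with neocortex in mice that lack S1P3, which responds to the lipid messenger sphingosine 1-phosphate. The comparison uses every array that the sample titles label S1P3-KO, which is 10 of the 50 arrays in the series: 5 of neocortex and 5 of hippocampus, each with 2 males and 3 females aged 8 weeks. The same regions of wild-type mice and of S1P2-KO mice, with 10 arrays per region and genotype, serve only to show where the S1P3-KO difference departs from theirs. Per the design text, S1P2-deficient mice have seizures that occur sporadically and S1P3-deficient mice do not. The design text gives group sizes of 10, 5 and 10 and names S1P2-deficient mice where S1P3-deficient ones would stand, whereas the titles give 10 wild-type, 10 S1P2-KO and 5 S1P3-KO arrays per region. The titles were followed. They call the replicates biological and do not say whether a neocortex and a hippocampus with the same number came from the same mouse. The strain, the kind of deletion and how each region was dissected are not given in the sources used here. RNA of each region was measured in bulk, so fewer cells of a type and less RNA per cell cannot be told apart.

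Sphingosine 1-phosphate acts on cells through a family of G protein-coupled receptors on their surface, encoded by S1pr1 to S1pr5. S1P3, the product of S1pr3, couples to several classes of G protein and is known in brain from astrocytes and blood vessels as well as neurons. Hippocampus and neocortex are both cortical structures built of pyramidal neurons, local inhibitory interneurons and glia. Hippocampus is a simple cortex made of the dentate gyrus and the CA fields, whereas neocortex is layered and carries its own transcription factors in each layer. Many transcripts are known to differ between them in normal brain, and the values below give the difference gene by gene for the mice that lack this receptor.

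Values are MAS5 signals, the array maker's background-corrected intensities on a linear scale, and the mean ± SD over arrays is given where arrays are not listed. Differences are hippocampus minus neocortex on the scale of log2(signal + 30.7), with the standard error (SE) from a limma model of all 50 arrays, so that 1 unit is a doubling and the change of dim genes is understated. A gene was called when its p-value, adjusted over all 8534 probe sets tested, was under 0.05, and each gene stands by its brightest probe set. Levels of different genes are not compared, since each probe set has its own brightness. Where the signals of a list are summed, its brightest members weigh most.

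Hippocampus replicate 5 stands apart and is shown throughout. For Gapdh and beta-actin the array carries control probe sets at either end of the transcript, and their 3' to 5' signal ratio is known to rise when RNA is degraded or copied short. Its log2 value lay between 0.21 and 0.36 on the 5 neocortex arrays and between 0.40 and 0.52 on hippocampus replicates 1 to 4, but was 4.46 on hippocampus replicate 5. That array also had the lowest median signal, 299.6 against 361.05 to 413.75 on the other 9, and the lowest median correlation with arrays of its own region, 0.850 against 0.933 or more. Even without it the hippocampus ratios lay above every neocortex ratio, and the part of the ratio in the regional difference was not tested beyond the fits in the closing section. Every array matched its sex label by Eif2s3y, a Y-linked gene with a signal of at least 635.4 in males and at most 128.2 in females over the series.

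The signal of S1pr3 itself was 600.5, 1122.2, 786.0, 637.4 and 500.6 on S1P3-KO neocortex replicates 1 to 5. It was 526.6, 451.4, 480.7, 551.9 and 464.2 on the hippocampus replicates. The probe set thus gave signal on all 10 arrays, with overlapping groups, and neocortex replicate 2 was the highest. The regional difference of -0.48 ± 0.20 (SE, n = 5 against 5) was not called at an adjusted p of 0.11. Without hippocampus replicate 5 it was -0.45 and not called (adjusted p = 0.24). Without neocortex replicate 5 it was called, at -0.61 with an adjusted p of 0.048. The S1P3-KO signals averaged 729 ± 242 (SD, n = 5) in neocortex and 495 ± 42.7 in hippocampus, against 859 ± 168 and 827 ± 204 (SD, n = 10) in wild-type. The sources used here do not place this probe set relative to the deletion, so its signal does not check the genotype labels. S1pr2 and S1pr1, the other receptors of the family followed here, differed by 0.03 ± 0.22 and 0.09 ± 0.20, and neither was called.

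Of 6350 genes tested, 449 (7.07%) were higher and 419 (6.60%) lower in S1P3-KO hippocampus than in S1P3-KO neocortex. Without hippocampus replicate 5 the calls were 288 (4.54%) higher and 279 (4.39%) lower. Counted by probe set, 531 (6.22%) of 8534 were higher and 542 (6.35%) lower, or 347 (4.07%) and 336 (3.94%) without that array. Both ways together, 254 genes were called higher and 244 lower, and these 498 genes are meant below by "called with and without replicate 5". A further 370 genes were called only with that array and 69 only without it, and 0 changed direction between calls. Differences of more than 2-fold were found for 57 of the 254 higher and 62 of the 244 lower genes. In 173 of the 254 and 155 of the 244 every hippocampus array lay on 1 side of every neocortex array, which over all genes tested held for 3.78% in the higher and 3.48% in the lower direction. The 254 and 244 genes were called on these same arrays, so their separation largely follows from that choice and is a description.

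The promoters of 4 genes are printed to show what lies at the start of genes on either side of the comparison. Dsp, a desmosome protein, and Lmo1, a transcriptional cofactor, were higher in hippocampus. Gabrb2, a GABA-A receptor subunit, and Cckbr, the cholecystokinin B receptor, were lower. Each sequence is the 300-base RefSeq window around an annotated start in build GRCm38.p6, 5' to 3' on the gene's strand. Capitals mark matches on either strand to a core of MEF2 sites, CTA and TAG with any 4 bases between, or to GCGNGGGCG, a core of EGR sites. The motifs and the 4 windows were chosen after the values were seen, and the windows of Lmo1 and Gabrb2 are 1 of 2 and 1 of 3 annotated for those genes. For these genes the first window with a match to any motif searched was printed. A match in it therefore follows from that choice.
Dsp, chr13:38151044-38151343 (+ strand): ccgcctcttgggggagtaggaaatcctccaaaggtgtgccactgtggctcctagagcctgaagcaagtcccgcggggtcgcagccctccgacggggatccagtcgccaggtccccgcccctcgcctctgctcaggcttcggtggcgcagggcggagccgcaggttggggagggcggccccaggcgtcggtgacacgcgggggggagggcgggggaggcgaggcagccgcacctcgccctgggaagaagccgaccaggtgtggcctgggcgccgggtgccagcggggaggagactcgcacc
Lmo1, chr7:109175158-109175457 (- strand): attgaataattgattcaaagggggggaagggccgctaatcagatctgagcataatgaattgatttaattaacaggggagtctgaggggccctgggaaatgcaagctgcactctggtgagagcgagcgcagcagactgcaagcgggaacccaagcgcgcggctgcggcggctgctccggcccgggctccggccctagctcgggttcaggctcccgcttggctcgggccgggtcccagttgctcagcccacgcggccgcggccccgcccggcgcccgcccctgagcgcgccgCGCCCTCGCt
Gabrb2, chr11:42420190-42420489 (+ strand): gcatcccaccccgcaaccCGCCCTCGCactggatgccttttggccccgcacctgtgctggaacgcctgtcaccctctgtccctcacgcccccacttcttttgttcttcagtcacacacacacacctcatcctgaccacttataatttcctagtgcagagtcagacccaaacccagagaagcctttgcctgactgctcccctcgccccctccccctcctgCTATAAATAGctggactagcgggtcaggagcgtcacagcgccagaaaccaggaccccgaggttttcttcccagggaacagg
Cckbr, chr7:105425481-105425780 (+ strand): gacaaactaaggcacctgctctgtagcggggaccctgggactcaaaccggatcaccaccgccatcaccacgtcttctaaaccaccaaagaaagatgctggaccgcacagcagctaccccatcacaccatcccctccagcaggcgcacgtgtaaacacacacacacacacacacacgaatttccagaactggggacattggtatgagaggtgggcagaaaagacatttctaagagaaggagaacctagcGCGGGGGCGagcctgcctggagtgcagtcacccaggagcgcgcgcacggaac
Gabrb2 carried 1 match to each motif, Lmo1 and Cckbr 1 match to the EGR core, and Dsp neither. The MEF2 core was found in 3.56% of the windows of the lower genes called with and without replicate 5, in 2.26% of those of the higher genes and in 2.92% of those of all genes tested. The EGR core was found in 13.3% of windows of the lower genes, 12.1% of the higher genes and 10.5% of all genes tested. It was also in 5.55% of all windows of the table, whose median GC content was 52.7% against 60.7% for genes tested. Another motif, TGACGTCA, the cAMP response element, was found in 3.56%, 1.51% and 2.78% of the windows of lower, higher and all tested genes, and in none of the 4 windows printed. Windows were matched for 188 of 244 lower and 201 of 254 higher genes, and no motif overlaps another in the windows printed. These are matches of letters, and binding at them was not measured.

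The genes with the largest positive difference in S1P3-KO include 2 desmosome proteins and a neuropeptide receptor. Dsp encodes desmoplakin, which ties desmosomes to intermediate filaments and marks dentate granule cells. Its signal was 1434.9, 1420.3, 936.9, 944.9 and 1411.8 on hippocampus replicates 1 to 5, against 219.9, 241.6, 113.4, 57.5 and 35.1 in neocortex. Every hippocampus array lay above every neocortex array, and the difference was 3.13 ± 0.34, or 8.73-fold, with an adjusted p of 9.6e-10. Pkp2 encodes plakophilin, a partner of desmoplakin in the desmosome. Pkp2 signals of 2500.7, 2162.5, 2903.9, 2137.0 and 4024.3 in hippocampus stood above 645.2, 378.9, 606.0, 455.7 and 627.5 in neocortex, a difference of 2.26 ± 0.20. A second Pkp2 probe set gave 2.81 ± 0.32.

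Npy2r encodes a receptor for neuropeptide Y that sits on nerve terminals and holds back transmitter release. Its signal was 3370.2, 2453.9, 3316.8, 3338.2 and 6523.5 in hippocampus and 477.6, 767.3, 404.1, 526.7 and 430.8 in neocortex. The difference was 2.75 ± 0.19 and was 2.53 without hippocampus replicate 5, the highest array. The peptide itself, Npy, ran the other way, at 2845.9, 3266.6, 3258.8, 3345.6 and 4931.2 in hippocampus against 7018.0, 5620.7, 5552.7, 6783.2 and 5779.3 in neocortex. The groups did not overlap, and Npy was lower in hippocampus by -0.81 ± 0.13. Receptor and peptide transcripts thus lay higher in opposite regions.

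Nrp1, a neuropilin that serves as a receptor for semaphorins and vascular growth factor, had the smallest p-value over all 10 arrays, and without hippocampus replicate 5 it came after Cpne6. Its hippocampus signals of 4102.2, 3618.1, 4340.9, 3883.5 and 4592.7 stood above 1278.1, 1098.3, 1182.8, 1414.4 and 1280.1 in neocortex. The arrays of each region lay close together, and the difference was 1.69 ± 0.10 with an adjusted p of 1.6e-18. The second Nrp1 probe set gave 1.71 ± 0.20. Other large differences were those of Lct, the intestinal lactase also known from hippocampus (2.34 ± 0.21), Myo5b, a myosin that moves recycling endosomes (1.995 ± 0.161), Mycl, a Myc family transcription factor (2.03 ± 0.35), and Cebpd, a transcription factor of inflammatory and glial responses (1.85 ± 0.23). In each of these 4 genes all hippocampus arrays lay above all neocortex arrays, although a second Myo5b probe set gave 0.47 ± 0.26 and was not called.

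Kl was higher by 2.90 ± 0.57 and encodes klotho, a membrane protein made in abundance by choroid plexus, the tissue in the ventricle that secretes cerebrospinal fluid. Kl signals were 599.4, 393.0, 1898.7, 184.7 and 321.6 in hippocampus and 46.6, 84.9, 12.3, 17.2 and 59.7 in neocortex. The groups did not overlap, and hippocampus replicate 3 was the highest. On the same arrays Ttr, the transthyretin that choroid plexus makes in large amounts, read 7107.3, 246.8, 21826.8, 249.5 and 452.1 in hippocampus and 310.2, 1031.7, 123.6, 152.2 and 526.1 in neocortex. Ttr was thus high on hippocampus replicates 1 and 3 alone, and its difference of 2.001 ± 1.471 was not called (adjusted p = 0.42). The summed signal of the 13 choroid plexus markers on the array ran from 6846 to 44040 in hippocampus and from 7806 to 9737 in neocortex. Of the 10 tested, Kl and Car12, a carbonic anhydrase (1.10 ± 0.23), were called higher and 0 lower. The part of choroid plexus in the difference of Kl was not tested.

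Gstm6, a glutathione transferase (2.19 ± 0.33), Zap70, a kinase of lymphocyte signalling (2.01 ± 0.36), Chrd, the BMP antagonist chordin (1.98 ± 0.43), and Tanc1, a postsynaptic scaffold protein (2.09 ± 0.43), complete the 12 genes with the largest positive difference. Gstm6 alone among the 12 had overlapping groups, since neocortex replicate 4 read 182.9 and hippocampus replicate 1 read 146.6. A second Zap70 probe set gave 0.16 ± 0.24 and was not called. All 12 genes were called with and without hippocampus replicate 5, which was the highest hippocampus array in 7 of them.

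**Figure D1:**
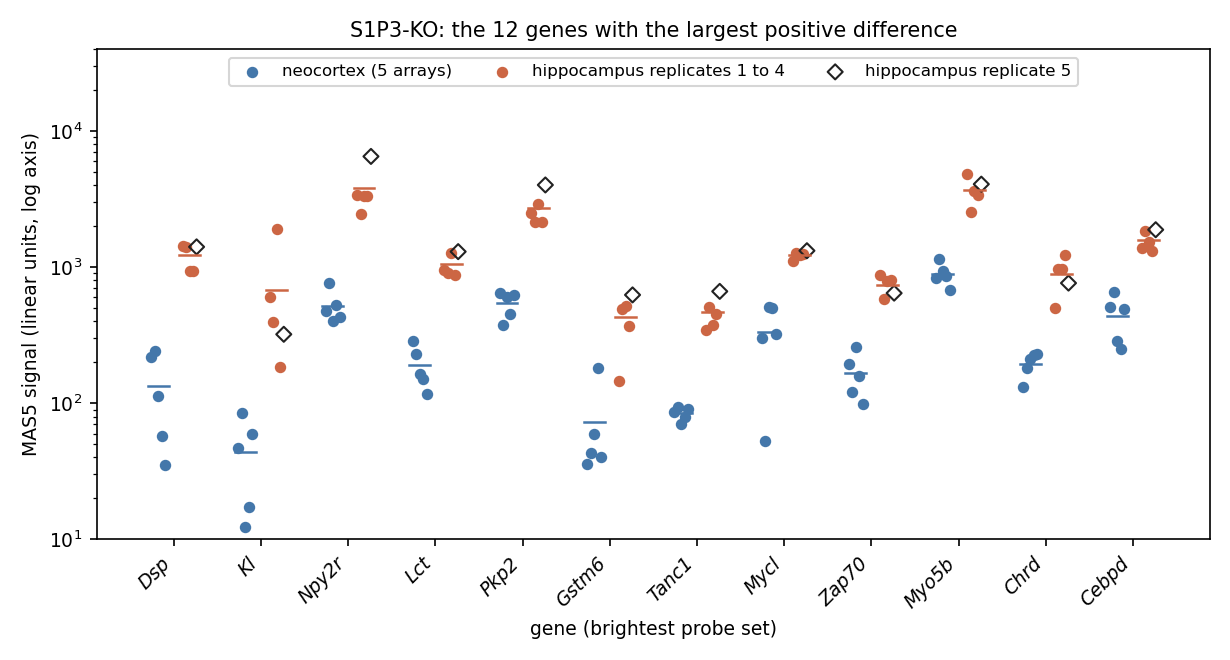
MAS5 signal on each of the 10 S1P3-KO arrays (log axis) for the 12 genes with the largest positive hippocampus minus neocortex difference; circles are arrays, open diamonds are hippocampus replicate 5 and short lines are means of 5 arrays. The regions are apart in every gene shown but Gstm6, and hippocampus replicate 5 lies among or above the other hippocampus arrays in most genes.

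Among genes lower in S1P3-KO hippocampus, Mef2c led. It encodes a transcription factor of excitatory neurons that is known to be abundant in neocortex and dentate gyrus. Its signal was 5564.4, 5886.9, 7466.6, 4632.5 and 4705.3 in neocortex and 398.0, 1005.6, 124.2, 127.2 and 124.3 in hippocampus. The groups did not overlap, hippocampus replicate 2 was the highest of its region, and the difference was -4.33 ± 0.62, or 20.1-fold. The other 3 Mef2c probe sets gave -5.11, -3.78 and -2.02, all called.

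Tnnc1 encodes a calcium-binding troponin of slow muscle that is also transcribed in neocortex. Neocortex arrays read 679.5, 859.0, 749.3, 758.4 and 905.3, and hippocampus arrays 28.5, 57.0, 60.6, 40.6 and 19.4. No hippocampus array came near the lowest neocortex array, and Tnnc1 was lower by -3.54 ± 0.39. Igfbp6, which binds insulin-like growth factors, read 3988.6, 3294.5, 3377.1, 4318.7 and 3881.0 in neocortex and 295.9, 1076.7, 1018.7, 1189.7 and 851.6 in hippocampus. Here too the groups did not overlap, and the difference was -2.18 ± 0.19 with and -2.18 without hippocampus replicate 5. Trbv1, a T cell receptor segment by its annotation, was lower by -2.34 ± 0.24 with groups fully apart.

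For several of the leading lower genes the hippocampus arrays themselves were widely spread. Camk2a, the alpha subunit of the calcium and calmodulin-dependent kinase of the postsynaptic density, read 134.3, 874.3, 250.3, 83.7 and 57.3 in hippocampus and 1226.9, 1105.9, 1248.0, 815.5 and 806.3 in neocortex. Hippocampus replicate 2 reached into the neocortex range, and the difference was -2.32 ± 0.60 (adjusted p = 0.0061), or -2.01 (adjusted p = 0.035) without replicate 5. A second Camk2a probe set gave -1.96 ± 0.73 and was not called (adjusted p = 0.067). Kcna1, a voltage-gated potassium channel of axons, read 42.0, 1080.3, 293.1, 52.0 and 53.5 in hippocampus against 1961.7, 2099.6, 2478.4, 995.3 and 938.1 in neocortex. Replicate 2 again overlapped neocortex, and the difference of -3.17 ± 0.91 was called with an adjusted p of 0.014. Without replicate 5 it was -2.92 and only just under the threshold (adjusted p = 0.04996). Snw1, a splicing and transcription factor, behaved alike, with replicate 2 at 715.6 among hippocampus arrays of 11.9 to 200.3 and a difference of -2.48 ± 0.66. Its difference without replicate 5 was -2.05, also only just under the threshold (adjusted p = 0.0493). Hippocampus replicate 2 was the highest hippocampus array in 9 of the 12 genes with the largest negative difference, against 13.7% of all genes tested, and replicate 5 the lowest in 9 of the 12, against 30.5%. The 12 were picked by a difference that includes replicate 5, which favours genes low on that array. Its share therefore cannot be read against the 30.5%.

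Other genes among the 12 kept their groups apart but owed part of the size to hippocampus replicate 5. Stx1a, a syntaxin of the vesicle fusion machinery, read 2102.6, 3068.2, 2579.0 and 2988.6 on replicates 1 to 4 and 52.9 on replicate 5, against 8098.3 to 9629.7 in neocortex. Its difference was -2.70 ± 0.42 with replicate 5 and -1.70 without it, called both ways. Ngef, a guanine nucleotide exchange factor acting below ephrin receptors, read 4133.8 to 4215.5 on replicates 1 to 4 and 452.5 on replicate 5, and moved from -2.21 to -1.58. Rgs4, which shortens G protein signals, moved from -2.31 to -1.70, and Nefm, a neurofilament subunit, from -2.20 to -1.59. Gabra3, a GABA-A receptor subunit, was lower by -2.33 ± 0.41 and by -2.08 without replicate 5. Cacna1a, the pore of P/Q-type calcium channels, was called with replicate 5 (-2.51 ± 0.69, adjusted p = 0.010) but not without it (-1.88, adjusted p = 0.085).

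**Figure D2:**
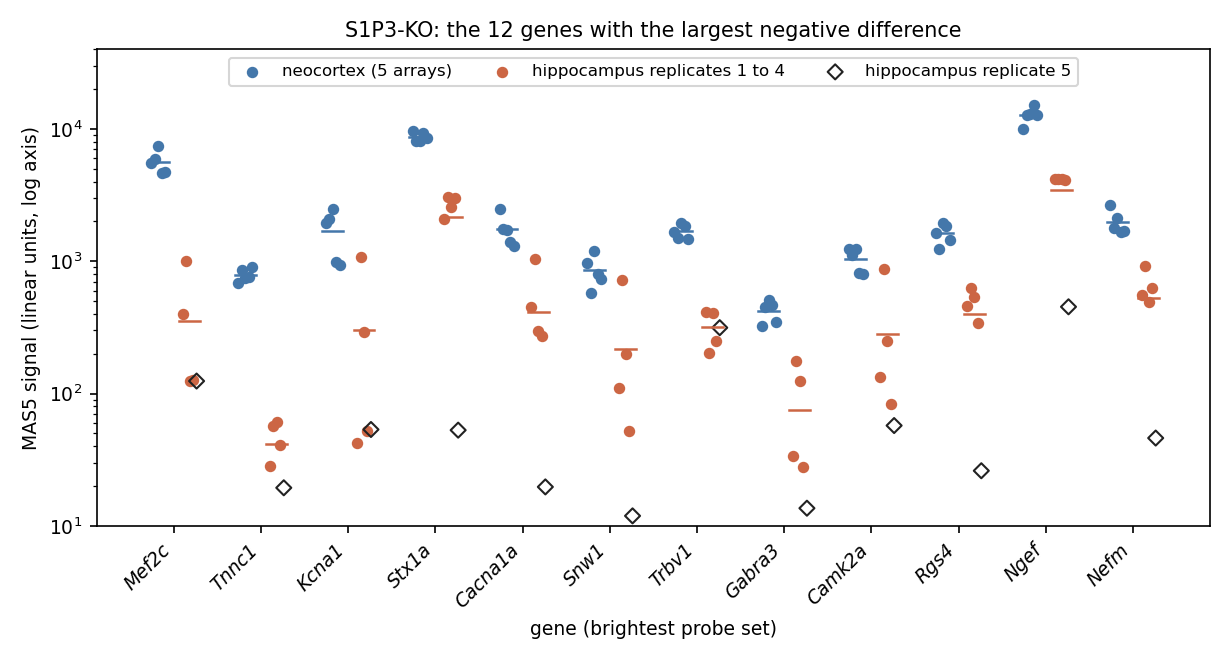
MAS5 signal on each of the 10 S1P3-KO arrays (log axis) for the 12 genes with the largest negative hippocampus minus neocortex difference; circles are arrays, open diamonds are hippocampus replicate 5 and short lines are means of 5 arrays. Hippocampus replicate 5 is the lowest hippocampus array in 9 of the 12 genes, and in Kcna1, Snw1 and Camk2a hippocampus replicate 2 reaches the neocortex arrays.

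For each list below, the background is the 7.07% of all genes tested that were called higher and the 6.60% called lower, or 4% and 3.84% with and without replicate 5. List members called only without replicate 5 are named after their values were seen. The labelled regions were set beside lists of genes known to mark them. These lists were chosen with earlier results of these data known, so they are no independent check of the labels. Of 18 tested markers of hippocampal fields, 9 were higher and 1 lower in hippocampus, with and without replicate 5, and the median difference was 0.47 against 0.01 over all genes tested. Dsp and Lct led, followed by Tdo2, an enzyme of tryptophan breakdown found in dentate granule cells (1.84 ± 0.35), and Nnat, neuronatin (1.78 ± 0.21). Tdo2 had overlapping groups, from 207.9 to 715.6 in hippocampus and from 37.7 to 234.0 in neocortex, and its second probe set was not called. The summed signal of the 23 markers on the array ran from 30610 to 32060 in neocortex and from 33020 to 47890 in hippocampus, with replicate 5 the lowest. Much of that gap can come from Nnat, which alone averaged 9224 in hippocampus and 2629 in neocortex. The 1 lower marker was Tyro3, a receptor tyrosine kinase (-1.31 ± 0.14), which is named for that reason after its value was seen.

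Of 18 tested markers of neocortical layers, 10 were lower and 1 higher in hippocampus, again with and without replicate 5, with a median of -0.88. Mef2c, Tnnc1 and Igfbp6 led, followed by Cux2, the transcription factor of upper layers (-2.06 ± 0.28). Cux2 signals were 45.9, 167.3, 103.1, 69.0 and 37.4 in hippocampus and 425.6, 386.1, 459.0, 350.9 and 450.2 in neocortex, with no overlap. The 1 higher marker was Crym, a thyroid hormone-binding protein listed for deep layers (1.77 ± 0.13), also named after its value was seen. The summed signal of the 19 markers on the array was 41190 to 46550 in neocortex and 23090 to 30140 in hippocampus. Within hippocampus it was highest on replicate 2, which also had the highest sum of hippocampal markers.

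Transcription factors that pattern forebrain neurons went in both directions, with 6 of 33 higher and 9 lower, of which 6 and 7 were called without replicate 5 too. Besides Mef2c and Cux2, the rule for named genes takes Zbtb20, a repressor needed for hippocampal CA1 identity, and Lmo1. Zbtb20 read 2957.2, 3746.9, 2716.5, 2649.8 and 712.4 in hippocampus and 509.0, 417.1, 848.1, 774.9 and 827.3 in neocortex. Replicates 1 to 4 were far above neocortex while replicate 5 lay inside its range, so that the difference was 1.74 ± 0.26 with and 2.13 without replicate 5. Lmo1, whose promoter is printed above, read 2890.2, 2305.7, 2633.9, 2673.7 and 1044.6 in hippocampus and 534.8 to 940.0 in neocortex, a difference of 1.45 ± 0.20. This size too includes replicate 5, which read far below the other hippocampus arrays.

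Receptors for GABA, the main inhibitory transmitter, split by subunit. Of 8 tested, 3 were lower and 1 higher with and without replicate 5. Gabra3 and Gabrd, subunits of GABA-A receptors, were lower by -2.33 ± 0.41 and -1.77 ± 0.30, and Gabrb2, whose promoter is printed above, by -1.66 ± 0.37. Gabrb2 read 300.5, 271.4, 299.5, 59.4 and 156.2 in hippocampus and 497.9, 860.9, 955.7, 712.0 and 472.5 in neocortex, with no overlap. Gabrb1, another beta subunit, was higher by 0.81 ± 0.12, at 9100.4 to 13665.1 in hippocampus and 4859.9 to 6852.2 in neocortex. The 2 beta subunits were therefore higher in opposite regions.

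Of 13 glutamate receptors tested, 3 (23.1%, against 6.60% of all genes) were lower and 0 higher, and without replicate 5 only Grm8, a presynaptic metabotropic receptor, remained (-0.87 ± 0.20). Grin2b, an NMDA receptor subunit, read 391.9, 1032.6, 627.7, 785.8 and 41.5 in hippocampus and 909.2 to 1252.1 in neocortex. Gria3, an AMPA receptor subunit, read 1097.0, 1034.7, 841.9, 555.3 and 21.2 against 889.5 to 1590.6. Both were lowest on replicate 5. Grin2b passed with it (adjusted p = 0.049) and not without it (adjusted p = 0.39), and also failed without hippocampus replicate 1 or any 1 neocortex array (adjusted p of 0.063 to 0.093). Gria3 passed at 0.011 and was at 0.082 without replicate 5.

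Receptors for monoamines, acetylcholine and neuropeptides numbered 3 higher and 6 lower of 27, or 3 and 4 with and without replicate 5. These shares of 11.1% and 22.2% stand beside 7.07% and 6.60% of all genes. Npy2r led the higher genes. Crhr1, the receptor for corticotropin-releasing hormone, was lower by -1.51 ± 0.17, Cckbr by -1.20 ± 0.14 and Adra1b, an alpha-1 adrenergic receptor, by -1.80 ± 0.38. Cckbr read 2250.9, 2598.3, 2770.6, 3269.1 and 2922.1 in neocortex and 1635.0, 1115.0, 1068.5, 1306.1 and 894.9 in hippocampus. All 3 lower receptors had groups that did not overlap.

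Potassium and HCN channels, which set resting potential and firing, had more calls lower than higher. Of 27 tested, 13 (48.1%, against 6.60% of all genes) were lower, 1 was higher and 13 were not called. With and without replicate 5, 8 were lower and 1 higher, and Kcnab2, a channel beta subunit, was called higher only without it (0.68, adjusted p = 4.7e-06). The median difference was -0.68, or -0.46 without replicate 5. Kcnj4, an inward rectifier, read 1735.7 to 1970.8 in neocortex and 1174.8, 896.3, 979.6, 1062.7 and 351.5 in hippocampus, a difference of -1.12 ± 0.21. This size includes replicate 5, which read far below the other hippocampus arrays. Kcnh1, an EAG-type channel, was lower by -1.91 ± 0.48 although hippocampus replicate 2 at 222.6 overlapped neocortex. Kcnma1, the large-conductance calcium-activated channel, was -1.65 ± 0.44 with replicate 5 and missed the threshold without it (-1.34, adjusted p = 0.053). The 1 higher member was Kcnd2, an A-type channel of dendrites (1.02 ± 0.18), named after its value was seen. The summed signal of the 34 channel genes on the array was 33980 to 41160 in neocortex, 29270 to 35410 on hippocampus replicates 1 to 4 and 16770 on replicate 5.

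Calcium-dependent kinases, phosphatases and calcium-binding proteins had 10 of 29 higher and 6 lower, of which 10 and 5 held with and without replicate 5, and a median of -0.03. Prkcb, a protein kinase C, was called lower only without it (-0.24, adjusted p = 0.0026). Camk2a and Camk2d, another subunit of the same kinase (-1.22 ± 0.29), were lower. The size for Camk2d includes replicate 5, which read 33.3 against 121.8 to 167.7 on the other hippocampus arrays. Camk4, a nuclear calcium-dependent kinase, was -1.12 ± 0.34 and lost its call without hippocampus replicate 1 or 5 or neocortex replicate 2 or 4 (adjusted p of 0.064 to 0.080). Ryr3, a calcium release channel of the endoplasmic reticulum, read 1581.6, 1689.3, 1799.5, 1489.5 and 671.8 in hippocampus and 552.5 to 919.7 in neocortex. It was higher by 1.005 ± 0.158, and by 1.25 without replicate 5, the only hippocampus array inside the neocortex range.

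Immediate early genes, which neurons switch on within minutes of firing, had more calls lower than higher in hippocampus. Of 30 tested, 11 (36.7%, against 6.60% of all genes) were lower, 1 was higher and 18 were not called. With and without replicate 5, 8 were lower and 1 higher. The median difference was -0.63. Egr1 read 4299.9, 6002.0, 9098.1, 8403.7 and 8008.5 in neocortex and 1473.0, 2111.8, 2527.3, 2522.7 and 3425.6 in hippocampus. The groups did not overlap, and the difference was -1.56 ± 0.22. Egr2 differed by -1.82 ± 0.39, also without overlap, and Homer1, a postsynaptic scaffold with an activity-induced short form, by -1.56 ± 0.34. Fos, a subunit of the AP-1 factor, read 831.5 to 1974.3 in neocortex and 390.5, 329.8, 643.3, 416.9 and 834.9 in hippocampus, a difference of -1.40 ± 0.41 that missed the threshold without neocortex replicate 5 (-1.25, adjusted p = 0.055). The 1 higher gene was Jun, Fos's partner in AP-1 (0.85 ± 0.14), named after its value was seen.

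Guidance molecules, which steer axons in development and act at adult synapses, gave 6 of 35 higher and 7 lower, or 6 and 5 with and without replicate 5. These shares of 17.1% and 20% stand beside 7.07% and 6.60% of all genes. Efnb2, an ephrin ligand, was called lower only without replicate 5 (-0.60, adjusted p = 0.017). Nrp1 led the higher genes with Epha7, an ephrin receptor (1.47 ± 0.20), and Sema3e, a secreted semaphorin (1.47 ± 0.25). Sema3e read 859.4, 765.4, 521.8, 390.3 and 851.2 in hippocampus and 57.6 to 332.9 in neocortex, without overlap. Ntrk2, the receptor for brain-derived neurotrophic factor, was -1.63 ± 0.54 with replicate 5 (adjusted p = 0.038). It read 114.9, 416.3, 33.9, 89.2 and 11.9 in hippocampus and 242.8 to 462.8 in neocortex, and its call was lost without hippocampus replicate 5 (-1.29, adjusted p = 0.18) or 3, or neocortex replicate 1, 3 or 4 (adjusted p of 0.065 to 0.092).

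Genes of matrix and adhesion numbered 5 of 48 higher (10.4%, against 7.07% of all genes) and 7 lower (14.6%, against 6.60%), or 3 and 5 with and without replicate 5. Apart from Dsp, Sparc, a matrix protein of glia and vessels, was higher by 1.25 ± 0.16 and Cdh4, a classical cadherin, lower by -1.41 ± 0.35, with hippocampus replicate 2 at 420.9 inside the neocortex range. Cntn1, an axonal adhesion molecule, was -1.21 ± 0.40 (adjusted p = 0.037), and -0.67 without replicate 5 (adjusted p = 0.31). Its call was also lost without hippocampus replicate 1 or without neocortex replicate 1, 2, 3 or 5 (adjusted p of 0.051 to 0.096).

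Markers of glia were mostly higher where they were called. Of 18 astrocyte markers, 5 were higher and 1 lower, or 3 and 1 with and without replicate 5. Gfap, the intermediate filament of astrocytes, read 4758.0, 4098.1, 2994.2, 4707.0 and 7107.9 in hippocampus and 2528.9, 1501.9, 1369.7, 1230.5 and 1448.5 in neocortex. The groups did not overlap and the difference was 1.52 ± 0.18, with a second probe set at 0.78 ± 0.16. Ntsr2, a neurotensin receptor of astrocytes, was higher by 0.42 ± 0.08. Dio2, which activates thyroid hormone, was -0.51 ± 0.15 and lost its call without hippocampus replicate 3 or neocortex replicate 1 or 3 (adjusted p of 0.065 to 0.082). Fabp7, a fatty acid-binding protein of radial glia and astrocytes, was 0.54 ± 0.18 with replicate 5 and not called without it (0.40, adjusted p = 0.19), nor without hippocampus replicate 2 or neocortex replicate 1, 3, 4 or 5 (adjusted p of 0.051 to 0.11).

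Of 14 oligodendrocyte and myelin markers, 3 were called higher, Car2, a carbonic anhydrase (0.60 ± 0.13), Qdpr, a pteridine reductase (0.40 ± 0.13), and Pdgfra, the receptor of oligodendrocyte precursors (0.66 ± 0.19). Car2 was called with and without replicate 5. Mag and Mbp, proteins of the myelin sheath, were called higher only without it, by 0.41 (adjusted p = 0.025) and 0.26 (adjusted p = 0.029). Qdpr was not called without hippocampus replicate 1 or 5 or neocortex replicate 1, 3 or 4 (adjusted p of 0.055 to 0.18), nor Pdgfra without hippocampus replicate 5 or neocortex replicate 2 or 4 (adjusted p of 0.053 to 0.060), and a second Pdgfra probe set gave -0.60 ± 0.52, uncalled. The summed signal of the 15 on the array was 50780 to 55610 in neocortex and 60760 to 73070 in hippocampus, so the sums did not overlap. Of 14 microglia markers, Ly86 (0.73 ± 0.22), Ctss (0.34 ± 0.09) and Csf1r (0.33 ± 0.11) were called higher with replicate 5 and 0 by limma without it, where 4 had an unadjusted p under 0.05. Ly86 also lost its call without hippocampus replicate 3 or neocortex replicate 2 or 4 (adjusted p of 0.052 to 0.090), and Csf1r without hippocampus replicate 4 or neocortex replicate 1 or 2 (adjusted p of 0.059 to 0.17). A second Csf1r probe set gave -0.13 ± 0.23, in the opposite direction and not called. The endothelial list held 1 higher call of 17, Ramp2, a receptor partner for adrenomedullin (0.62 ± 0.13), a share of 5.88% that is near the 7.07% of all genes.

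Interneuron markers included 1 higher (5.56%, near the 7.07% of all genes) and 3 lower (16.7%, against 6.60%) of 18, or 1 and 2 with and without replicate 5. Calb2, calretinin, read 2082.4, 1991.5, 1143.4, 1673.4 and 983.5 in hippocampus against 645.5 to 980.0 in neocortex and was higher by 0.86 ± 0.15. Pvalb, parvalbumin, was lower by -0.52 ± 0.12. On hippocampus replicates 1 to 4 it read 4089.6 to 4515.4, below every neocortex array, but 6178.3 on replicate 5, inside the neocortex range of 5980.5 to 7479.4. A second Pvalb probe set gave -0.49 ± 0.21 and was not called (adjusted p = 0.12, or 0.073 without replicate 5). Vip, the peptide of another interneuron class, was -0.74 ± 0.26 at an adjusted p of 0.049, and lost its call without replicate 5 and without 6 other single arrays (adjusted p of 0.055 to 0.15). Among 25 neuropeptides and trophic factors, 6 were lower and 0 higher, and without replicate 5 there were 4 lower and 2 higher. With and without it 3 were lower, led by Adcyap1, the peptide PACAP (-1.20 ± 0.23). The 2 higher ones were Tgfb2 (1.13, adjusted p = 0.019) and Fgf13 (0.62, adjusted p = 0.049), members of growth factor families. Penk, the enkephalin precursor, was called lower only without replicate 5 (-0.72, adjusted p = 0.025).

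Genes known from meninges and fibroblasts gave 1 higher and 2 lower of 12, or 1 and 1 with and without replicate 5. The higher share of 8.33% is near the 7.07% of all genes, and the lower share is 16.7% against 6.60%. Dcn, the proteoglycan decorin, was higher by 1.67 ± 0.19 and Ptgds, prostaglandin D synthase, lower by -0.69 ± 0.14. Thalamus markers gave 1 higher and 1 lower of 9, Prkcd (0.48 ± 0.16) and Rora (-0.91 ± 0.16). Prkcd lost its call without any 1 of 6 arrays, namely hippocampus replicate 1 or 3 or neocortex replicate 1, 3, 4 or 5 (adjusted p of 0.073 to 0.12), while a second Prkcd probe set gave 0.78 ± 0.15 and was called with and without replicate 5. Of 6 striatum markers, Foxp1 was called lower with replicate 5 (-0.95 ± 0.30, adjusted p = 0.028). Foxp1 was not called without hippocampus replicate 5 (adjusted p = 0.22) or neocortex replicate 1 or 5 (adjusted p of 0.074 and 0.053). Penk, also on this list, was called lower without replicate 5, as given above. Neither of the 2 red blood cell markers was called. None of the markers named was at 0 on any array.

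Sphingosine 1-phosphate and lysophosphatidic acid receptors, their enzymes and the signalling proteins below them gave 1 call higher and 3 lower of 24. The higher share of 4.17% is below the 7.07% of all genes, and the lower share is 12.5% against 6.60%. Without replicate 5 limma called 0, with 7 at unadjusted p under 0.05. The 3 lower were Gna13, a G protein that S1P receptors couple to (-1.08 ± 0.29), Rhoa (-0.79 ± 0.26) and Smpd1, acid sphingomyelinase (-0.83 ± 0.23). Smpd1 read 5593.5 to 7360.5 on hippocampus replicates 1 to 4 and 1147.0 on replicate 5, against 7448.3 to 8808.0 in neocortex. Without replicate 5 its difference was -0.33 (adjusted p = 0.070). Gna13 without replicate 5 was -0.82 (adjusted p = 0.076), and its second probe set gave 0.36 ± 0.23, in the opposite direction and not called. Rhoa without replicate 5 was -0.72 (adjusted p = 0.11). Other Rhoa probe sets gave -0.20 ± 0.19 and -0.67 ± 0.41 over all arrays, neither called. Plpp3, a lipid phosphatase that degrades these lipids, was 0.42 ± 0.14 (adjusted p = 0.047), and 0.35 without replicate 5 (adjusted p = 0.17). Rhoa also lost its call without hippocampus replicate 3 or 4 or neocortex replicate 1, 2 or 5 (adjusted p of 0.068 to 0.096), and Plpp3 without hippocampus replicate 2 or 3 or neocortex replicate 2, 3 or 4 (adjusted p of 0.053 to 0.18).

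Steroid receptors and glucocorticoid-responsive genes gave 5 of 17 higher and 4 lower, or 2 and 2 with and without replicate 5. Hsd11b1, which regenerates active glucocorticoid, was higher by 0.92 ± 0.15 without overlap. Cdkn1a, the cell cycle inhibitor p21, was lower by -1.47 ± 0.28, and by -2.14 ± 0.35 in a second probe set. Nr3c1, the glucocorticoid receptor, read 31.4, 185.5, 200.1, 160.4 and 10.3 in hippocampus and 111.8 to 334.5 in neocortex, and its difference of -1.07 ± 0.32 was not called without hippocampus replicate 5 (-0.68, adjusted p = 0.18), hippocampus replicate 1 (adjusted p = 0.084) or neocortex replicate 5 (adjusted p = 0.067). Of 17 cholesterol synthesis enzymes, Fdft1, squalene synthase (-0.58 ± 0.15), was called lower both ways, and Mvd (-0.86 ± 0.24) was not called without hippocampus replicate 4 or 5 or neocortex replicate 4 (adjusted p of 0.054 to 0.063).

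**Figure D3:**
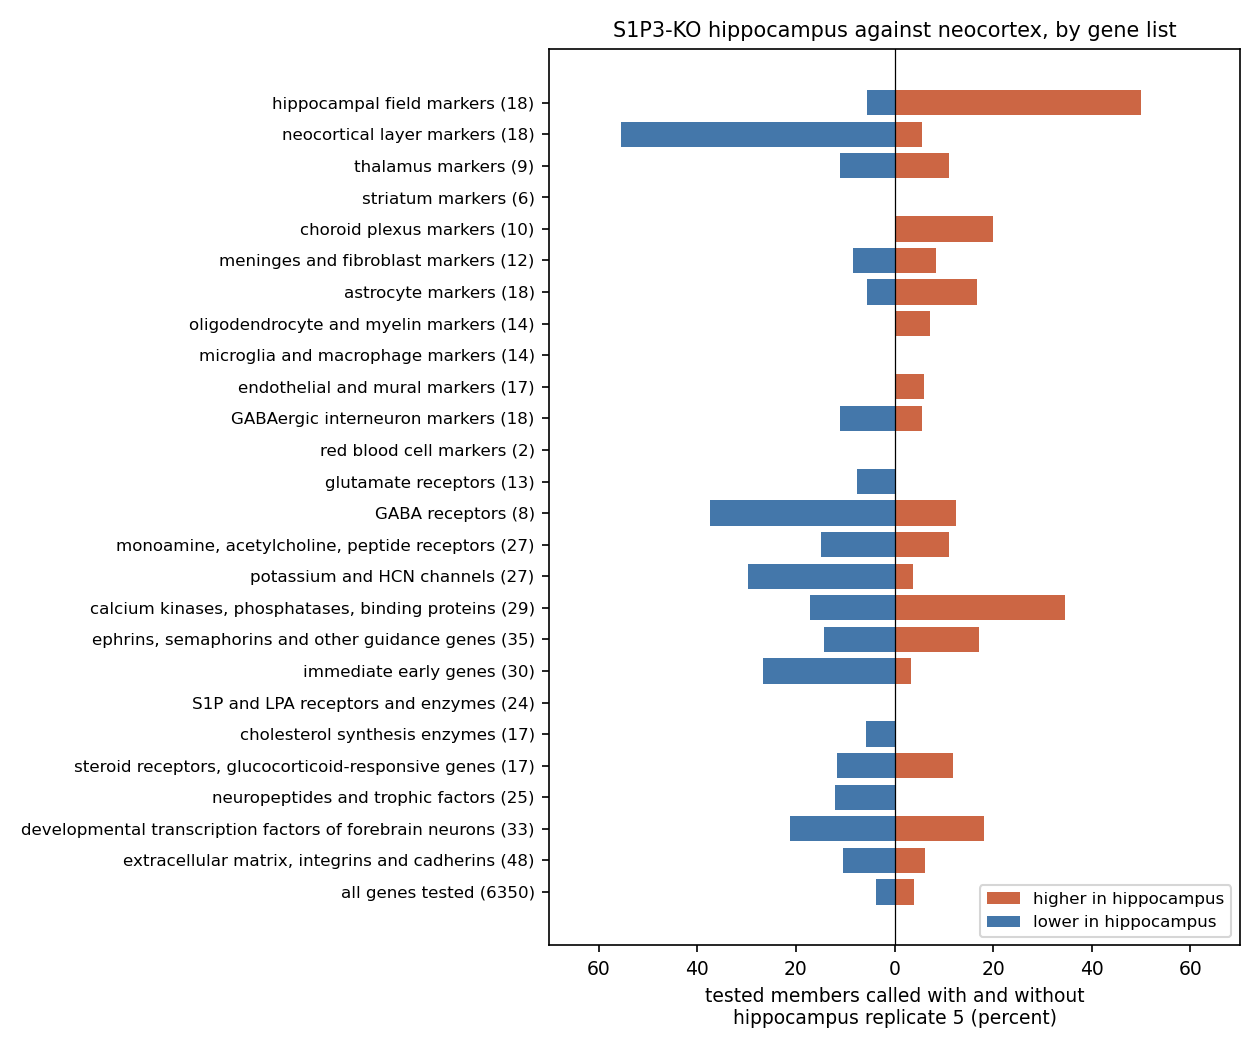
Percent of the tested members of each gene list (number tested in brackets) called higher (right) or lower (left) in S1P3-KO hippocampus both with and without hippocampus replicate 5, with all 6350 genes tested as the last row. Hippocampal field markers lie to the right (9 of 18) and neocortical layer markers, potassium channels and immediate early genes mainly to the left (10 of 18, 8 of 27 and 8 of 30); the shortest list holds 2 genes.

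Hippocampus replicate 5 could make or hide differences by itself. The 8 genes that shifted most when it was left out were, in order, Nsmf, Rnf112, Usp22, Syt1, Fkbp8, C1qa, Sult4a1 and Stx1a, which were chosen by that shift, so their values are a description. Syt1, the calcium sensor of vesicle release, read 6010.9, 9561.2, 5908.2 and 5425.7 on replicates 1 to 4 and 140.4 on replicate 5, against 6568.8 to 9683.2 in neocortex. C1qa, a complement subunit made by microglia, read 3245.6 to 3565.1 on replicates 1 to 4, above every neocortex array (2841.1 to 3160.4), and 61.2 on replicate 5. Fkbp8, a chaperone of the outer mitochondrial membrane, read 7581.3 to 9597.8 and then 203.8, against 8009.8 to 10555.8 in neocortex. In each of the 8 genes replicate 5 was the lowest of the 10 arrays. In Nsmf, Rnf112, Usp22 and C1qa the sign of the difference turned when it was left out, and none of these 4 was called either way. A second Nsmf probe set kept its sign, at -0.20 with and -0.24 without replicate 5, uncalled both ways.

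Over the 175 genes called lower only with replicate 5, that array was the lowest hippocampus array in 86.3%, and over the 195 called higher only with it, the highest in 82.6%. Over all genes tested it was the lowest in 30.5% and the highest in 34.6%. Genes called only with replicate 5 were picked by its effect on the call. The 86.3% and 82.6% are thus largely fixed by that choice and are a description. Of the genes called only with replicate 5, 190 of 195 higher and 169 of 175 lower genes had the same sign in wild-type, as had 252 of 254 and 239 of 244 of the genes called with and without it. The share of same signs over all genes is not given here. Called the same way in wild-type were 86 of the 195 and 54 of the 175 genes called only with replicate 5. Among the genes called with and without it, these were 212 of 254 and 204 of 244. Over all genes tested, 8.39% were called higher and 7.20% lower in wild-type. Wild-type calls come from the same model of 50 arrays, whose residual spread includes replicate 5. The median absolute difference over all genes was 0.22 with replicate 5 and 0.18 without it, against 0.16 in wild-type with its 10 arrays per region.

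**Figure D4:**
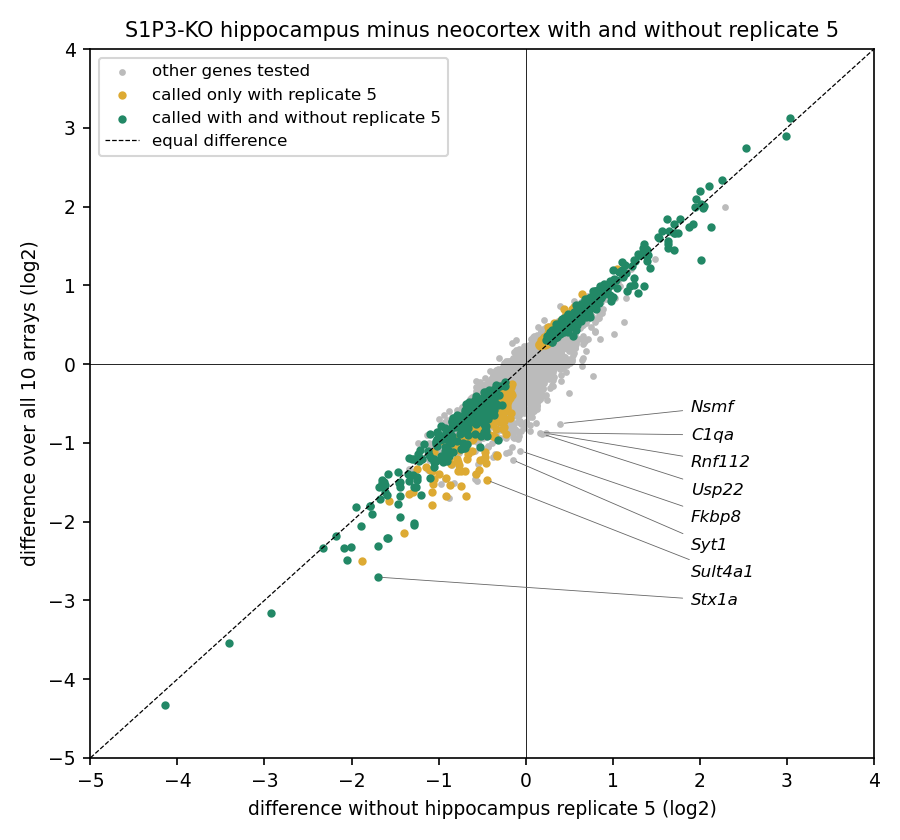
Hippocampus minus neocortex difference (log2) of every gene in S1P3-KO over all 10 arrays (vertical) against the same without hippocampus replicate 5 (horizontal); points on the dashed line are equal. Most genes called both ways lie near the line, and the 8 labelled genes, led by Nsmf, lie below it because replicate 5 lowered their hippocampus mean.

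The regional difference of S1P3-KO was then set against that of the other genotypes, gene by gene. Of the 254 higher genes called with and without replicate 5, 252 had the same sign in wild-type, 212 were called there, 218 were called in S1P2-KO and 197 in both. Over all genes tested, 8.39% were called higher and 7.20% lower in wild-type, and 8.27% and 7.45% in S1P2-KO. Of the 244 lower genes these were 239, 204, 218 and 197. Across the 6350 genes, which are not independent, the S1P3-KO and wild-type differences had a Pearson correlation of 0.74 and a Spearman correlation of 0.61, and those of S1P3-KO and S1P2-KO 0.75 and 0.62. Dsp differed by 3.03 in wild-type and 3.04 in S1P2-KO beside 3.13 in S1P3-KO, and Npy2r by 2.79 and 2.64 beside 2.75. Nrp1 differed by 1.64 and 1.46 beside 1.69, and Igfbp6 by -1.99 and -1.83 beside -2.18.

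Whether a regional difference itself differed between genotypes was tested directly as the S1P3-KO difference minus the other. Against wild-type, 0 of 8534 probe sets passed in limma, the smallest adjusted p was 0.85, and 471 (5.52%) had unadjusted p-values under 0.05, or 287 without replicate 5. Against S1P2-KO, 0 passed as well, the smallest adjusted p was 0.93, and 364 had unadjusted p-values under 0.05, or 204 without replicate 5. The median SE of such a difference was 0.23, so small departures could not be detected with 5 arrays per S1P3-KO group. For Dsp the S1P3-KO difference exceeded the wild-type one by 0.09, with a 95% interval from -0.74 to 0.93, and for Nrp1 by 0.05, from -0.19 to 0.29. For Mef2c it was -1.11, from -2.63 to 0.41. An interval that includes 0 does not show that the genotypes are alike.

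Some genes were called in S1P3-KO alone, 21 of the 254 higher and 19 of the 244 lower, but the test of the difference called none of them. Camk2a differed by -2.32 in S1P3-KO, -0.68 in wild-type and -0.96 in S1P2-KO, and the excess over wild-type of -1.64 had an interval from -3.12 to -0.16 and an adjusted p of 0.85. Without hippocampus replicate 5 the Camk2a excess was -1.33, with an interval from -2.85 to 0.19. Tnnc1 was called in every genotype, at -3.54, -2.36 and -2.65, with an excess over wild-type of -1.18 (-2.14 to -0.22, adjusted p = 0.85). Tanc1 and Chrd were called in wild-type too (adjusted p of 0.015 and 0.0030), but not in S1P2-KO. Tanc1 differed by 2.09 in S1P3-KO, 1.03 in wild-type and 0.83 in S1P2-KO. Its excess over wild-type was 1.07, with an interval that just included 0. Chrd differed by 1.98, 1.22 and 0.79, with an excess over wild-type of 0.76 (-0.30 to 1.82).

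The smallest unadjusted p-values of these tests fell to genes picked after their values were seen. Intervals given for them are unadjusted and leave out 0 by that choice. Against wild-type these were Kdelr1, which retrieves escaped endoplasmic reticulum proteins, Calb1, the calcium buffer calbindin, Spr, a pteridine synthesis enzyme, and Trappc3, a vesicle tethering subunit. Kdelr1 read 4298.6, 3447.4, 4113.9, 3508.7 and 3257.4 in S1P3-KO neocortex and 2377.8, 3415.4, 2972.4, 2818.9 and 2671.2 in hippocampus. Its difference was -0.38 ± 0.11 where wild-type had 0.17 and S1P2-KO -0.01, and the excess over wild-type was -0.56 (-0.84 to -0.28). Calb1 read 2615.4 to 3610.8 in hippocampus and 1949.7 to 2827.3 in neocortex, a difference of 0.41 ± 0.11 against -0.12 in wild-type. Kdelr1 lost its S1P3-KO call without hippocampus replicate 1 or neocortex replicate 1 or 3 (adjusted p of 0.056 to 0.067), and Calb1 without neocortex replicate 3 (adjusted p = 0.060).

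Against S1P2-KO the smallest unadjusted p-values were those of Gclc, Wwc2, Des and Stat5b. Gclc, which makes the precursor of glutathione, read 1247.4, 1232.2, 1153.5, 1289.4 and 1389.1 in hippocampus and 961.3, 833.4, 879.5, 968.3 and 950.2 in neocortex. The groups did not overlap, and its difference of 0.45 ± 0.11 stood beside 0.02 in wild-type and -0.10 in S1P2-KO. Stat5b, a cytokine-activated transcription factor, was lower by -1.50 ± 0.35 with groups apart, beside -0.42 and -0.08. Its excess over S1P2-KO of -1.42 had an interval from -2.28 to -0.57, which again leaves out 0 by the choice of the gene. None of these 8 genes passed after adjustment (adjusted p of 0.85 against wild-type or 0.93 against S1P2-KO).

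**Figure D5:**
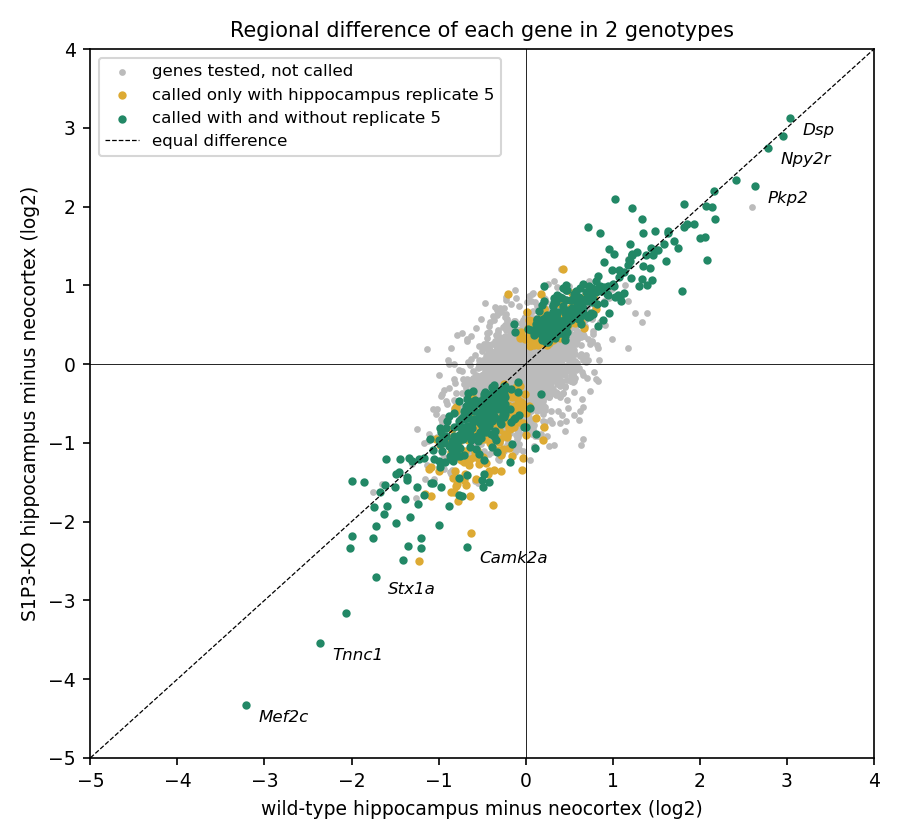
Hippocampus minus neocortex difference (log2) of every gene in S1P3-KO (vertical) against wild-type (horizontal); points on the dashed line are equal. The labelled genes Dsp, Npy2r and Pkp2 are high in both genotypes and Mef2c and Tnnc1 low in both, whereas Camk2a is -2.32 in S1P3-KO and -0.68 in wild-type, a gap that did not pass its own test.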

How the data were processed

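RNA of neocortex and hippocampus was hybridised to 50 Affymetrix arrays, from 12 µg of total RNA each per the labels' protocols. The authors deposited 1 intensity per probe set and array for 12488 probe sets, on a linear scale, and per the submitters' processing notes these are MAS5 signals. MAS5 subtracts a mismatch signal, which makes dim genes noisy. Arrays were already scaled alike (trimmed means 999.2 to 999.8), so none was rescaled. The number of arrays limits the precision.

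Groups, sexes and replicate numbers came from the sample titles, which disagree with the design text on the size of the knockout groups. The values are log2(signal + 30.7), 30.7 being the 10th percentile. Probe sets above the 30th percentile of level were tested, 8534 of them after 66 control probe sets were removed. One model of a mean per genotype and region plus sex was fitted to all 50 arrays with limma 3.58.1 in R 4.3.3 (lmFit, eBayes with trend), and to 49 arrays without hippocampus replicate 5. P-values were adjusted by Benjamini-Hochberg. As the p-values measure the spread between arrays, they cover animals only as far as the replicates are separate animals. The procedure was tested on simulated data.

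Names came from the platform annotation: 10855 probe sets had 1 symbol, 396 several and 1237 none, and 10839 matched the GRCm38.p6 table by gene identifier. Promoter windows are RefSeq's from that build. The members and the 25 gene lists were chosen with earlier results of these data known. Genes named are S1pr1 to S1pr3, the 12 largest called differences in each direction, up to 4 called members of each list by size (or the smallest p), and the 8 largest shifts by replicate 5. Others are marked as chosen after their values were seen, as are list members named in counts.

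Alternatives were the offset, the filter, quantile normalization, sex within region, a replicate block, the 3' to 5' ratio as covariate, array weights, fewer arrays and each array left out. Same-numbered arrays of the 2 regions did not deviate together (correlations from -0.07 to 0.17), so the numbers were not treated as pairs.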

Additional observations from a re-analysis of the deposited data

Results flagged for a closer look

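Values far from the rest of their group of 5 were found by Dixon's criterion, which chance alone meets in about 1 in 20 groups. It was met by the 3' to 5' control ratio of hippocampus replicate 5 (log2 value 4.46) and in 34 of 218 combinations of a named gene and a region (15.6%). Of these 34, hippocampus replicate 5 was the far array as the lowest in 19 and as the highest in 2. The 19 include the 8 genes that were named because replicate 5 shifted them most, so the share cannot be read against the chance rate.

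On hippocampus replicate 5 the following genes read far below the other hippocampus arrays. Among genes of synapse and axon these were Stx1a (52.9), Rgs4 (26.1), Ngef (452.5), Nefm (46.1), Syt1 (140.4), Nsmf (42.5), Gria3 (21.2), Kcnj4 (351.5) and Camk2d (33.3). Ryr3 (671.8) and the transcription factors Foxp1 (286.1), Zbtb20 (712.4) and Lmo1 (1044.6) were low there too. So were Smpd1 (1147), Rnf112 (39.5), Usp22 (21.2), Fkbp8 (203.8), C1qa (61.2) and Sult4a1 (100.3). Qdpr (13301.5) and Pvalb (6178.3) were far above the other hippocampus arrays on that array.

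The other hippocampus arrays gave 4 such values. Igfbp6 was low on replicate 1 (295.9) and Grm8 on replicate 3 (157). Dcn (4032) and Kcnh1 (222.6) were high on replicate 2.

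In neocortex, replicate 2 was low for Mycl (53.2), Gabrd (381.3) and Sema3e (57.6) and high for Grm8 (641.5) and Syt1 (9683.2). Replicate 1 was high for Gfap (2528.9) and low for Fdft1 (1726.9), an enzyme of cholesterol synthesis. Replicate 4 was high for Gstm6 (182.9) and low for Alas2 (113.2), an enzyme of haem synthesis.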

How the results depend on the processing

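The count of 1073 probe sets called between the S1P3-KO regions stayed within 1.5 times under another offset, filter, normalization or coding of sex (930 to 1080). It moved to 650 when the 3' to 5' ratio was added as covariate, 684 with array weights and 314 when the 10 S1P3-KO arrays were fitted alone, and ran from 683 to 1230 when single arrays were left out, where 683 is without hippocampus replicate 5. A replicate block gave 1403 calls, 867 without replicate 5, although each number correlated best with itself for only 2 of 5 numbers. Without replicate 5 the count of 683 stayed within 1.5 times in every setting, from 552 to 647 with a further array left out. The tests between genotypes gave 0 calls under every setting run, the block included, with 203 to 715 probe sets at an unadjusted p under 0.05. Of the named genes, 32 lost their call with the ratio as covariate, 22 with array weights, 35 with 10 arrays alone, and at most 7 under the offset, filter, normalization or sex settings. Signs turned only for uncalled genes. With the ratio as covariate these were S1pr1 (-0.036), Nsmf (0.92), Rnf112 (0.69), Usp22 (0.30), Fkbp8 (0.0064) and C1qa (0.31), and with array weights Nsmf (0.29), Usp22 (0.12) and C1qa (0.0027). With single arrays left out, S1pr2 ran from -0.074 to 0.163. The signs of 5 genes turned without hippocampus replicate 5, namely S1pr1 (-0.028, up to 0.241 with another array left out), Nsmf (0.40, down to -1.097), Rnf112 (0.23, down to -1.233), Usp22 (0.19, down to -1.239) and C1qa (0.17, down to -1.144). The cause of these shifts was not tested.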
